A study of Bubalus bubalis with 12 samples.

Results

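The interleukin 1 (IL-1) family was followed in whole corpus luteum (CL) of buffalo cows during luteolysis. Members were all probe sets whose gene symbol in the platform annotation was exactly IL33, IL18, IL1RN, IL1A, IL1B, IL1R1, IL1R2, IL1RAP, IL1RL1 or IL18BP. This gave 14 of the 24016 probe sets tested, standing for 8 of the 10 genes. IL33 and IL1RAP had 3 probe sets each, IL1A and IL1B 2 each, and IL18, IL1RN, IL1R1 and IL1R2 1 each. For IL1RL1 and IL18BP no probe set was named, so they were not analysed here.

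The CL is the progesterone-secreting gland that forms from the ovulated follicle. Tissue from day 11 of the estrous cycle was read on 12 arrays, labelled as biological replicates and taken here as 1 animal each. There were 4 untreated controls (0 h), and 2, 3 and 3 treated animals collected 3, 6 and 18 h post injection. Treatment was an intramuscular injection of 500 µg of cloprostenol, an analogue of prostaglandin F2α (PGF2α). No vehicle-injected group was used here, and all groups shared species, tissue and cycle day. Values are log2 robust multichip average (RMA) values from the GeneChip Bovine Genome Array, so 1 unit is a doubling. Since the probes were designed on cattle sequence, the levels of different genes are not compared. In whole tissue, fewer cells of a type and less RNA per cell cannot be told apart.

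IL-1α and IL-1β, encoded by IL1A and IL1B, both bind the receptor IL1R1, which then recruits the accessory chain IL1RAP and signals through MYD88 to NF-κB. The antagonist encoded by IL1RN occupies IL1R1 without recruiting IL1RAP, and IL1R2 is a decoy that binds the ligand but does not signal. IL-33, a nuclear protein released from damaged endothelial, epithelial and stromal cells, uses the receptor IL1RL1 together with IL1RAP, while IL-18 has its own receptor pair and is held in check by IL18BP. In cattle, macrophages accumulate in the regressing CL, and IL-1β raises prostaglandin output of cultured luteal cells.

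Some arrays stood apart. Control replicates 1 and 4 were closer to each other (r = 0.997, 6 probe sets more than 2-fold apart) than any other pair within a time (220 to 1306 probe sets). The labels call both biological replicates, and they were kept as 2 samples, with values for their mean given where a call changed. Whether they come from 1 RNA was not tested, and if so there are fewer than 4 independent controls. Control replicate 3 lay toward the treated arrays on the first principal component (-13.8, against -48.8 to -35.8 for the other controls). At 3 h replicate 1 was at -29.6 and replicate 3 at 1.89. As a check of the tissue label, the mean log2 value of 10 luteal markers (STAR, CYP11A1, HSD3B1 and others) was 13.0 to 13.4 in controls.

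In outline, IL33 was up regulated at 6 h and 18 h on 2 of its 3 probe sets, and IL1RN at 18 h. IL18 was up regulated at 6 h and not called at 18 h, and IL1R1 was up regulated at 6 h. At 6 h 4 of 14 probe sets were called higher at an adjusted p under 0.05 (limma, Benjamini-Hochberg over 24016 probe sets) and 0 lower, where 5.26% of all probe sets were called higher and 6.08% lower. These were 2 of IL33, the 1 of IL18 and the 1 of IL1R1. At 18 h 3 of 14 were called higher, 2 of IL33 and the 1 of IL1RN, and 0 lower, where 5.71% of all were called higher and 6.63% lower. At 3 h 0 of 14 were called (0 also at an unadjusted p under 0.05, against 9.89% of all), where 0.00416% of all were called higher and 0.0167% lower. Between treated times 0 of 14 were called at 6 h against 3 h and at 18 h against 6 h, where 0.183% and 0.258% of all were called higher. At an unadjusted p under 0.05 these counts were 5 and 2 of 14, against 12.6% and 11.3% of all probe sets. The median log2 difference over the 14 probe sets was 0.23 at 3 h, 0.82 at 6 h and 0.48 at 18 h, against -0.01, -0.04 and -0.02 over all 24016. Probe sets of 1 gene share their transcript and are not independent.

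**Figure D1:**
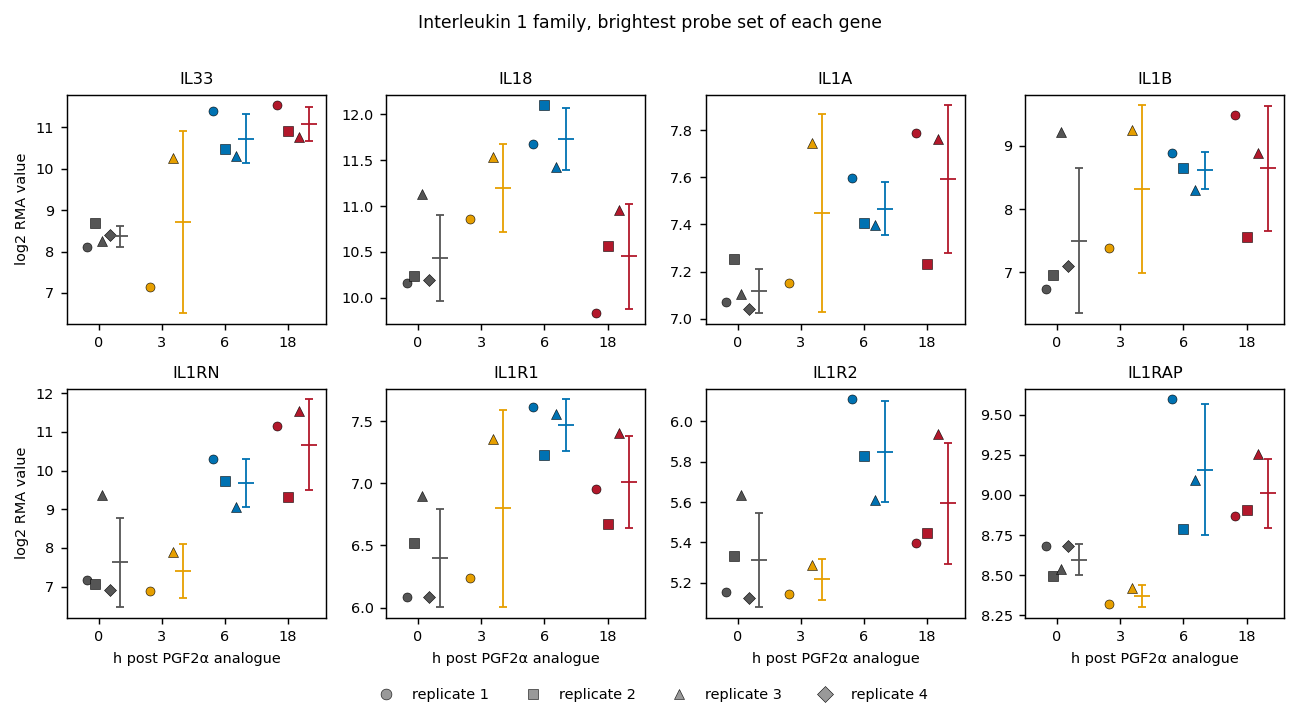
Log2 RMA value (vertical axis, own range per gene) of the brightest probe set of each of the 8 genes by h post PGF2α analogue (horizontal axis, times evenly spaced). Each point is 1 array, shaped by replicate number, and bars give mean ± SD (n = 4, 2, 3 and 3). IL33 was above every control (at most 8.70) on every 6 h and 18 h array, and IL18 was above every control (at most 11.13) on the 6 h arrays.

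IL33, whose product is released by damaged cells, rose at 6 h and 18 h on 2 of its 3 probe sets. On its brightest probe set IL33 read 8.12, 8.70, 8.25 and 8.40 in the 4 controls, 7.15 and 10.27 at 3 h, 11.40, 10.48 and 10.32 at 6 h, and 11.54, 10.91 and 10.78 at 18 h. Every array at 6 h and 18 h thus stood above every control, while the 2 arrays at 3 h fell on either side of the controls. The rise was 5.15-fold at 6 h (log2 2.36 ± 0.56 SE, adjusted p = 0.0217, n = 3 and 4) and 6.54-fold at 18 h (2.71 ± 0.56, adjusted p = 0.00962, n = 3 and 4). At 6 h this call was lost without control replicate 1 (adjusted p = 0.0620), control replicate 4 (0.0551), 6 h replicate 1 (0.0928) or 6 h replicate 2 (0.0608), and with control replicates 1 and 4 averaged (0.0586). At 18 h it was lost without 18 h replicate 1 (0.0510), and with control replicate 3 dropped and replicates 1 and 4 averaged (0.0603), an alternative chosen after the data were seen, under which it was also lost at 6 h (0.0991).

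The second IL33 probe set gave the same picture with less spread. It read 7.80, 7.75, 7.54 and 7.54 in controls, 7.59 and 8.52 at 3 h, 10.41, 9.26 and 9.13 at 6 h, and 10.93, 9.55 and 9.67 at 18 h. IL33 rose here by log2 1.95 ± 0.38 at 6 h (3.85-fold, adjusted p = 0.00903) and by 2.40 ± 0.38 at 18 h (5.26-fold, adjusted p = 0.00244). Neither call was lost in any of the 12 fits without 1 array, where the adjusted p reached 0.0358 at 6 h and 0.0107 at 18 h. The 2 probe sets followed each other over the 12 arrays (r = 0.935).

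The third IL33 probe set did not show this rise. It read between 5.76 and 6.46 in controls, 6.04 and 6.07 at 3 h, between 5.64 and 7.02 at 6 h and between 5.97 and 6.67 at 18 h, with the times overlapping throughout. The difference was log2 0.13 (95% interval -0.53 to 0.79) at 6 h and 0.25 (-0.41 to 0.91) at 18 h, and neither was called. These intervals lie below the differences seen on the other 2 probe sets. Over the 12 arrays it correlated with them at r = 0.18 and 0.092, as a description of these arrays. Which part of the buffalo transcript each of the 3 probe sets reads was not examined here.

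**Figure D2:**
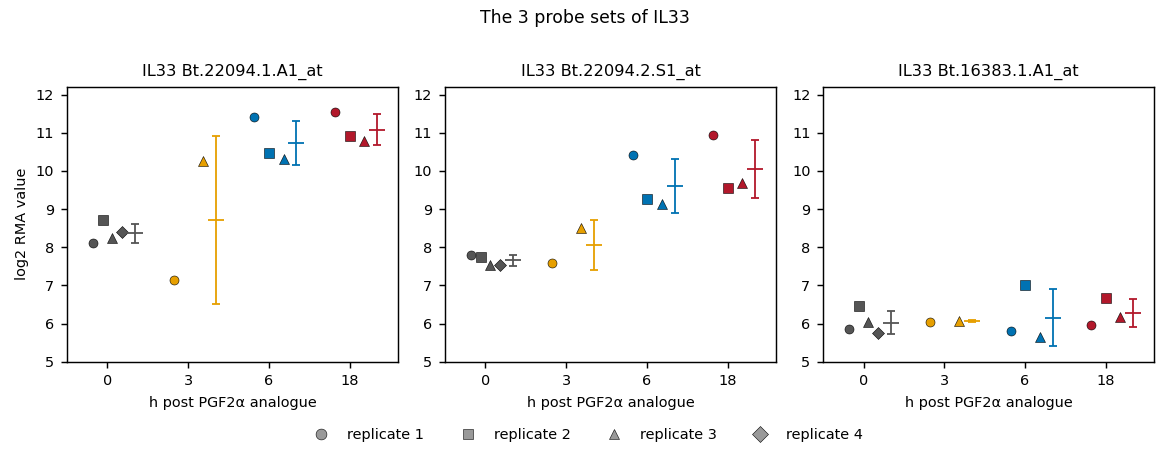
Log2 RMA values (vertical axis, same range in each panel) of the 3 IL33 probe sets by h post PGF2α analogue (horizontal axis, times evenly spaced). Each point is 1 array and bars give the mean ± SD (n = 4, 2, 3 and 3). The first and second probe sets stood higher on every array at 6 h and 18 h than on any control, and the third overlapped at all times.

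Between 3 h and the later times IL33 was called once. At 18 h against 3 h the second probe set was higher by log2 2.00 ± 0.45 (adjusted p = 0.0391, n = 3 and 2), and the first by 2.37 ± 0.67, which was not called (adjusted p = 0.0906). This comparison called 2 of the 14 higher, IL33 and IL1RN, against 1.72% of all probe sets, and 7 of the 14 did not overlap, against 28.4% of all. With control replicates 1 and 4 averaged the second IL33 probe set was no longer called here (adjusted p = 0.061). The IL33 call was lost in 7 of the 12 fits without 1 array (highest adjusted p = 0.145, without 3 h replicate 1). Without 3 h replicate 1 the first probe set differed by 1.90 at 3 h against 0 h (adjusted p = 0.0354), and without 3 h replicate 3 by -1.22 (0.224), so the 3 h value rests on which animal is read. The order of the IL33 means was 0 h, 3 h, 6 h and 18 h on both probe sets, and no neighbours in that order were called different (adjusted p = 0.182 to 0.909).

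IL18 rose at 6 h and was not called at 18 h. It read 10.16, 10.24, 11.13 and 10.20 in controls, 10.86 and 11.54 at 3 h, 11.67, 12.10 and 11.43 at 6 h, and 9.83, 10.57 and 10.95 at 18 h. All 3 arrays at 6 h were above every control, whereas the 18 h arrays spanned the control range. IL18 was 2.47-fold higher at 6 h (log2 1.30 ± 0.31, adjusted p = 0.0217, n = 3 and 4). At 18 h the difference from controls was 0.02 ± 0.31 (95% interval -0.66 to 0.70, adjusted p = 0.981).

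The difference of IL18 at 18 h from 6 h was not called over all probe sets, although the 2 times did not overlap. It was log2 -1.28 ± 0.33 (adjusted p = 0.138, n = 3 each), and 19.9% of all probe sets did not overlap between these times. At 3 h the difference was 0.77 ± 0.35 (adjusted p = 0.505, n = 2 and 4). The order of the means was 0 h, 18 h, 3 h and 6 h, and no neighbours in that order were called different. The call at 6 h was lost in 5 of the 12 fits without 1 array: without control replicate 1 (adjusted p = 0.0650), 2 (0.0552) or 4 (0.0642), or 6 h replicate 1 (0.0644) or 2 (0.0973). It was also lost with control replicates 1 and 4 averaged (0.0645). Without control replicate 3, which stood at 11.13, it was 1.54 (adjusted p = 0.00529).

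IL1RN, the antagonist, rose at 18 h. It read 7.16, 7.07, 9.36 and 6.91 in controls, 6.90 and 7.89 at 3 h, 10.29, 9.73 and 9.05 at 6 h, and 11.15, 9.32 and 11.53 at 18 h. At 18 h 2 of 3 arrays stood above every control, the third (9.32) lying just below control replicate 3. The rise was 8.24-fold (log2 3.04 ± 0.65, adjusted p = 0.0110, n = 3 and 4), and was lost without 18 h replicate 1 (adjusted p = 0.0557). Without 18 h replicate 3 it was called at 2.61, below the 2.86 of the first IL33 probe set in that fit.

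At 6 h IL1RN was not called (log2 2.07 ± 0.65, adjusted p = 0.0636), but was called in 2 of the 12 fits without 1 array. Without control replicate 3 the difference was 2.64 (adjusted p = 0.00746), and without 18 h replicate 2 the adjusted p was 0.0423. It was also called without the dimmest 40% of probe sets (adjusted p = 0.0480), and with control replicate 3 dropped and replicates 1 and 4 averaged (2.64, adjusted p = 0.0325). At 18 h without control replicate 3 the difference was 3.62 (adjusted p = 0.00129). IL1RN at 18 h was also higher than at 3 h (log2 3.27 ± 0.77, adjusted p = 0.0483, n = 3 and 2), a call lost in 10 of the 12 fits without 1 array (highest adjusted p = 0.154). With control replicates 1 and 4 averaged this call was lost as well (adjusted p = 0.0661). At 3 h IL1RN differed from controls by -0.23 ± 0.73 (adjusted p = 0.951). The means ran in the order 3 h, 0 h, 6 h and 18 h with no neighbours called different.

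IL1B, the ligand that this antagonist blocks, was not called at any time, with wide spread among controls. On its brighter probe set it read 6.75, 6.95, 9.21 and 7.10 in controls, 7.38 and 9.25 at 3 h, 8.89, 8.64 and 8.30 at 6 h, and 9.49, 7.56 and 8.88 at 18 h. Every treated array stood above control replicates 1, 2 and 4, and control replicate 3 stood within the treated range. The log2 difference was 0.81 ± 0.72 at 3 h, 1.10 ± 0.64 at 6 h (95% interval -0.29 to 2.50, adjusted p = 0.322) and 1.14 ± 0.64 at 18 h (-0.26 to 2.54, adjusted p = 0.298). The other probe set gave 0.80, 1.34 and 1.27, and the 2 followed each other over the 12 arrays (r = 0.990).

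Without control replicate 3 IL1B was called at both later times on both probe sets, at 6 h with log2 1.67 and 1.96 (adjusted p = 0.0492 and 0.0415) and at 18 h with 1.71 and 1.89 (0.0442 and 0.0472). With control replicates 1 and 4 averaged in addition, an alternative chosen after the data were seen, none of these was called (adjusted p = 0.111 to 0.126). At 3 h the IL1B value rested on replicate 3, without which the difference was -0.12 on the first probe set.

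IL1RN was also set against IL1B within each array. The zero point of this difference has no meaning, since the probe sets differ, but its change between arrays does. IL1RN minus IL1B was 0.42, 0.12, 0.15 and -0.20 in controls, -0.48 and -1.36 at 3 h, 1.40, 1.09 and 0.75 at 6 h, and 1.66, 1.76 and 2.65 at 18 h. Control replicate 3, high for both genes, stood inside the other controls here, but was the lowest control with the other IL1B probe set (0.60, against 0.69 to 0.87). The times did not overlap, with 3 h lowest, then 0 h, 6 h and 18 h. Relative to controls the mean shifted by -1.04 at 3 h, 0.96 at 6 h and 1.90 at 18 h. With the other IL1B probe set the shifts were -1.03, 0.73 and 1.78. This measure was chosen after the values were seen and is given with no test.

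**Figure D3:**
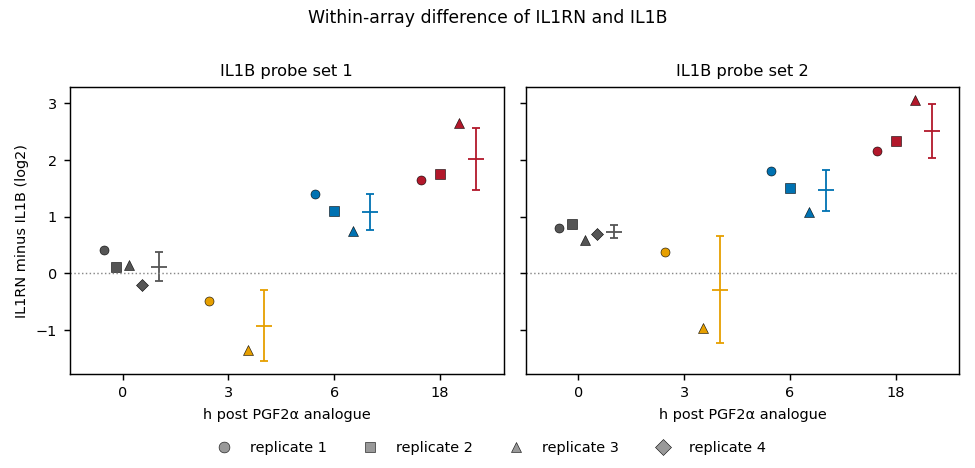
IL1RN minus IL1B in log2 units within each array (vertical axis), for each of the 2 IL1B probe sets, by h post PGF2α analogue (horizontal axis, times evenly spaced). Each point is 1 array and bars give the mean ± SD (n = 4, 2, 3 and 3). All 6 h and 18 h arrays lay above all controls, with control means of 0.12 and 0.74 and 18 h means of 2.02 and 2.52.

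IL1A, the other IL-1 ligand, was not called at any time. Its brighter probe set read 7.04 to 7.25 in controls, 7.15 and 7.74 at 3 h, 7.40 to 7.60 at 6 h and 7.23 to 7.79 at 18 h. The differences were log2 0.33, 0.35 and 0.48 at 3, 6 and 18 h, and on the other probe set 0.11, 0.40 and 0.48, none of them called (lowest adjusted p = 0.0531, at 18 h). The 18 h value was called on the second probe set in 4 of the 12 fits without 1 array and on the first in 3. In the buffalo assembly NDDB_SH_1, used here for gene order only, IL1A, IL1B and IL1RN lie on 1 chromosome, with 1 coding gene between IL1A and IL1B and 5 between IL1B and IL1RN. IL1R1 and IL1R2 are direct neighbours on that chromosome, and IL33 lies on another, which is not that of IL18.

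Among the receptors, IL1R1 was up regulated at 6 h. It read 6.09, 6.52, 6.90 and 6.08 in controls, 6.23 and 7.36 at 3 h, 7.62, 7.23 and 7.56 at 6 h, and 6.96, 6.67 and 7.40 at 18 h. All 6 h arrays stood above all controls, while the 18 h arrays overlapped them. The rise at 6 h was 2.10-fold (log2 1.07 ± 0.28, adjusted p = 0.0326, n = 3 and 4), and at 18 h the difference was 0.61 ± 0.28 (adjusted p = 0.196). The call at 6 h was lost in 6 of the 12 fits without 1 array. These were without control replicates 1, 2 and 4 (adjusted p = 0.0922, 0.0586 and 0.0925) and without 6 h replicates 1, 2 and 3 (0.114, 0.0676 and 0.0905). It was lost as well with control replicates 1 and 4 averaged (0.0924). The means ran in the order 0 h, 3 h, 18 h and 6 h, with no neighbours called different.

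The accessory chain IL1RAP, shared by the IL-1 and IL-33 receptors, could be read on 1 of its 3 probe sets. It read 8.68, 8.49, 8.54 and 8.68 in controls, 8.32 and 8.42 at 3 h, 9.60, 8.79 and 9.09 at 6 h, and 8.87, 8.91 and 9.26 at 18 h. Both 3 h arrays lay below, and all 6 h and 18 h arrays above, every control. The differences were not called, at log2 -0.23 ± 0.19 (adjusted p = 0.744), 0.56 ± 0.17 (0.0539) and 0.41 ± 0.17 (0.143). Of the 14 probe sets 1, 7 and 4 did not overlap with controls at 3, 6 and 18 h, where 14.4%, 25.7% and 25.4% of all did not. At 6 h IL1RAP was called with repeated quantile normalization (adjusted p = 0.0431), with array medians set equal (0.0497), without the dimmest 40% of probe sets (0.0421) and without 6 h replicate 2 (0.0309). The other 2 probe sets lay between 3.41 and 4.08 on every array, where the lowest value in the table was 3.18, and neither was called at any time.

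IL1R2, the decoy receptor, read 5.13 to 5.63 in controls, 5.15 and 5.29 at 3 h, 6.11, 5.83 and 5.61 at 6 h, and 5.40 to 5.94 at 18 h. At 6 h it differed by log2 0.54 ± 0.17 (adjusted p = 0.0662) and at 18 h by 0.28 ± 0.17 (0.340), and neither was called. Without control replicate 3 the 6 h difference was 0.65 (adjusted p = 0.0258), and without 18 h replicate 3 its adjusted p was 0.0474.

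**Figure D4:**
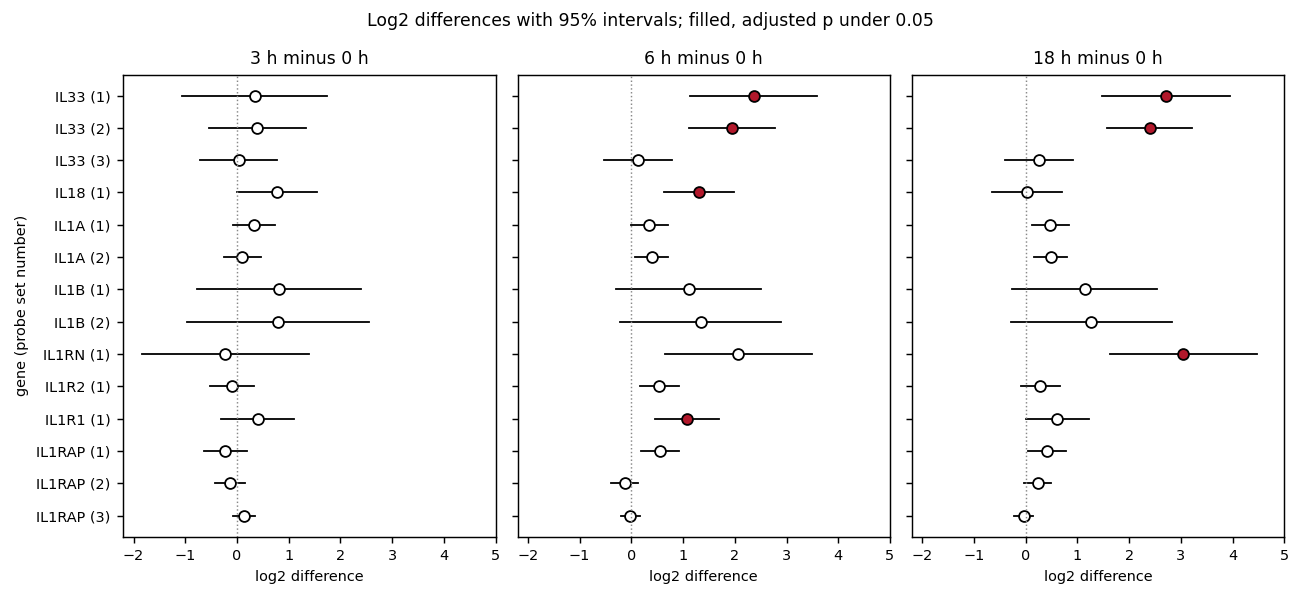
Log2 difference from controls (horizontal axis) at 3, 6 and 18 h for the 14 probe sets (rows, gene with probe set number, brightest first), with 95% intervals from the moderated fit. Filled circles have an adjusted p under 0.05 (0, 4 and 3 of 14). The third IL33 probe set and the last 2 of IL1RAP were not called at any time.

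Removing 1 array moved these counts widely, and the share of all probe sets called moved as well. The count of 4 at 6 h became 1 without control replicate 1, control replicate 4 or 6 h replicate 1, 2 without control replicate 2 or 6 h replicate 2, and 8 without control replicate 3. With all arrays 11.3% of all probe sets were called at 6 h in either direction. In the fits just named this share was, in the same order, 5.71%, 5.59%, 5.27%, 7.89%, 4.86% and 14.6%. The count of 3 at 18 h became 6 without control replicate 3, 5 without either 3 h array or 18 h replicate 2, and 1 without 18 h replicate 1. The 3 h arrays enter this comparison only through the shared estimate of spread, so leaving 1 out did not change the differences themselves. The share of all probe sets at 18 h was 12.3% with all arrays and 15.2% without control replicate 3. It was 16.1% without either 3 h array, 8.59% without 18 h replicate 2 and 6.42% without 18 h replicate 1. With control replicates 1 and 4 averaged the count was 1 at 6 h and 3 at 18 h, where 5.73% and 7.73% of all probe sets were called in either direction. The 1 left at 6 h was the second IL33 probe set.

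Macrophage markers were high on some of the same arrays. The mean log2 value of 13 macrophage markers (of 16 listed) was 7.86 to 9.47 in controls, the 9.47 being control replicate 3, 8.62 and 8.66 at 3 h, 8.41 to 8.70 at 6 h and 8.63 to 9.34 at 18 h. No marker is at 0 on this scale, and ITGAM averaged 4.07 in controls, where the lowest value in the table was 3.18. At 18 h 4 of the 13 were called higher and 0 lower, namely CD14 (log2 2.64 ± 0.45), a receptor for bacterial lipopolysaccharide, CD68 (1.60 ± 0.21), a lysosomal protein, CD86 (1.53 ± 0.32) and TYROBP (1.15 ± 0.32), where 7.55% of 9155 genes were called higher. At 6 h CD14 alone was called (2.25 ± 0.45), where 6.55% of all genes were called higher.

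Control replicate 3 thus held both the highest macrophage marker mean of the 12 arrays and high IL1B, IL1RN and IL18, whereas its IL33 (8.25 and 7.54) lay among the other controls. At 6 h the marker mean was below that of control replicate 3 on all 3 arrays. On the brightest probe sets IL33 and IL18 were above control replicate 3 on each of these arrays. IL1B was below it on each (8.89, 8.64 and 8.30, against 9.21), and IL1RN read 10.29, 9.73 and 9.05, against 9.36. The lowest marker mean among the 18 h arrays was that of replicate 2 (8.63), which also had the lowest IL1B and IL1RN at that time. The part of macrophage number in these values was not tested. Neutrophil markers (7 measured of 13) had 0 called at any time and means of 7.38 to 7.83 in controls, 7.15 and 8.14 at 3 h, 7.65 to 7.80 at 6 h and 7.74 to 7.97 at 18 h.

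**Figure D5:**
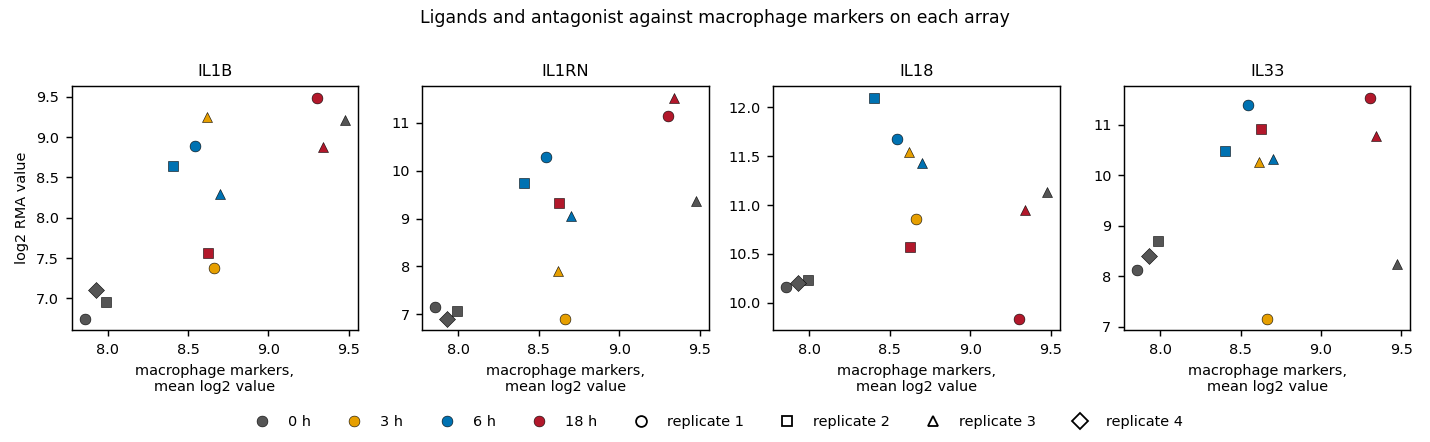
Log2 RMA value of IL1B, IL1RN, IL18 and IL33 (vertical axes, brightest probe set) against the mean log2 value of 13 macrophage markers (horizontal axes), 1 point per array, coloured by time and shaped by replicate number. Control replicate 3, at 9.47 on the horizontal axis, stands with the treated arrays for IL1B (9.21) and with the other controls for IL33 (8.25).

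Markers of some other cell types were called as well. Over all 9155 genes 6.55% were higher and 7.66% lower at 6 h, and 7.55% were higher and 8.35% lower at 18 h. Of 12 endothelial markers 4 were higher and 1 lower at both 6 h and 18 h, with means of 8.68 to 9.17 in controls, 8.90 and 9.22 at 3 h, 9.05 to 9.31 at 6 h and 9.03 to 9.17 at 18 h. Of 9 fibroblast markers 0 were called at 6 h and 4 were higher at 18 h, and of 8 smooth muscle markers 3 were higher at both 6 h and 18 h, where 6.55% and 7.55% of all genes were higher at these times. The fibroblast mean was 10.98 to 11.87 in controls, 11.45 and 11.82 at 3 h, 11.55 to 12.02 at 6 h and 12.003 to 12.40 at 18 h, so that the 18 h arrays stood above all controls. The smooth muscle mean was 9.54 to 10.44 in controls, 9.51 and 10.53 at 3 h, 10.45 to 10.70 at 6 h and 10.57 to 10.94 at 18 h. The 6 h and 18 h arrays stood above all controls, at 6 h narrowly (lowest 10.452, against 10.4365). Of 10 luteal markers 0 rose and 2 fell at 6 h and 6 fell at 18 h. Whether the rise of IL33, a product of endothelium and stroma, followed these cells was not tested. Of 16 T and NK cell markers 0 rose, 2 fell at 6 h and 1 fell at 18 h, the latter near the share of all genes that were lower. Their mean was 6.42 to 6.58 at 6 h against 6.62 to 6.91 in controls. Of 4 B cell markers 0 were called, and of 6 blood markers 0. Of the mast cell and eosinophil markers 3 of 13 were measured, of which KIT was higher at 6 h (log2 1.09 ± 0.31) and FCER1A at 18 h (0.77 ± 0.13).

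Of the genes that make and release active ligand, none of those measured was called. Of the list of processing and release 8 of 22 genes were measured, and 0 were called at 3, 6 or 18 h. Among all 9155 genes 6.55% were higher and 7.66% lower at 6 h, and 7.55% and 8.35% at 18 h. With 8 genes measured, 0 called is near these shares. CASP1, the protease that cleaves pro-IL-1β and pro-IL-18, differed by log2 -0.43 ± 0.29 at 6 h and 0.06 ± 0.29 at 18 h. PYCARD, the adaptor of the inflammasome, differed by -0.17 ± 0.47 and 0.46 ± 0.47, and GSDMD, which forms the pore for release, by -0.13 ± 0.10 at both times. The arrays measure transcripts only, so cleavage and release of the ligands were not observed. Of the other receptors of the family, IL18R1 (-0.02 ± 0.16 and -0.18 ± 0.16) and SIGIRR, an inhibitory receptor (0.15 ± 0.13 and -0.03 ± 0.13), were measured, and neither was called.

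Of the adaptors and kinases downstream of the receptors, 18 of 27 were measured, 2 rose and 2 fell at 6 h, and 2 rose and 1 fell at 18 h. Over all 9155 genes 6.55% were higher and 7.66% lower at 6 h, 7.55% and 8.35% at 18 h, and 0.0109% and 0.0218% at 3 h, when no listed gene was called. TRAF3IP2, the adaptor of the IL-17 receptor, rose by log2 0.75 ± 0.09 at 6 h (adjusted p = 0.00155) and 0.93 ± 0.09 at 18 h. MAP2K6, a kinase that activates p38, fell by 0.85 at 6 h and by 1.28 at 18 h (adjusted p = 0.00144), while MAP2K3, another such kinase, rose by 1.29 ± 0.35 at 6 h (0.0350). IRAK4, the first kinase recruited by MYD88, fell by 0.74 at 6 h (0.0469), and TAB2 rose by 0.47 ± 0.12 at 18 h (0.0251). The median of the list was 0.00 at 6 h and 0.04 at 18 h, against -0.05 and -0.02 over all genes.

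Of the NF-κB subunits and inhibitors, 14 of 18 were measured, and 0 were called at 6 h. At 18 h 2 rose, NFKB2 (log2 0.71 ± 0.20, adjusted p = 0.0376) and RELA (0.46 ± 0.13, 0.0340). Among all 9155 genes 6.55% were higher and 7.66% lower at 6 h, and 7.55% and 8.35% at 18 h. NFKBIA, the inhibitor that NF-κB itself induces, differed by 0.09 ± 0.29 at 6 h and -0.29 ± 0.29 at 18 h, which was not called. NFKB1 differed by 1.07 ± 0.32 at 6 h, just short of a call (adjusted p = 0.0503), and by 0.46 ± 0.32 at 18 h (0.412). The list median was 0.19 at 6 h and 0.32 at 18 h, against -0.05 and -0.02 over all genes.

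Of genes that IL-1 is known to induce in other cells, 32 of 36 were measured, 4 rose and 0 fell at 6 h, and 5 rose and 1 fell at 18 h. Among all 9155 genes 6.55% were higher and 7.66% lower at 6 h, and 7.55% and 8.35% at 18 h. The list median was 0.28 at 3 h, 0.27 at 6 h and 0.14 at 18 h, against -0.01, -0.05 and -0.02 over all genes. MMP1, interstitial collagenase, rose by log2 2.77 ± 0.48 at 6 h (adjusted p = 0.00614) and 2.97 ± 0.48 at 18 h (0.00287). TNFAIP6, a hyaluronan-binding protein, rose by 1.97 ± 0.46 at 6 h (0.0195), and MMP9, gelatinase B, by 0.68 ± 0.12 at 18 h (0.00456). CSF2 (0.98 ± 0.22) and IER3 (1.44 ± 0.31) rose at 18 h. Also called, and named because the counts are small, were CXCL8 (1.72 ± 0.45) and CCL20 (0.81 ± 0.23), both chemokines, at 6 h, and HAS2 (0.59 ± 0.16) higher and CEBPB (-0.93 ± 0.27) lower at 18 h. IL6, PTGS2 and ICAM1 were not called at any time, with differences at 6 h of 1.40 ± 0.57, 1.19 ± 0.40 and 0.16 ± 0.36. The mean log2 value of the list was 8.44 in control replicate 3 and 7.29 to 7.48 in the other controls, and at 3 h it was 8.32 in replicate 3 and 7.61 in replicate 1.

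Of genes known to respond to IL-18 or IL-33 in lymphoid cells, 17 of 20 were measured, and AREG alone rose (log2 6.77 ± 1.02 at 6 h, adjusted p = 0.00336, and 5.69 ± 1.02 at 18 h). AREG, an EGF receptor ligand, is also made by follicle cells of the ovary. STAT4 fell by 0.98 at 18 h (adjusted p = 0.0145). These counts were near the shares of all 9155 genes, 6.55% higher and 7.66% lower at 6 h, and 7.55% and 8.35% at 18 h. IFNG, the classical target of IL-18, differed by -0.12 ± 0.10 at 6 h, and IL5 and IL13, those of IL-33, by -0.07 ± 0.14 and 0.03 ± 0.10, none of them called. In controls IFNG averaged 4.30, IL5 4.14 and IL13 5.58, where the lowest value in the table was 3.18. Readings of IFNG and IL5 so near the floor cannot show that a response was absent.

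The genes most like each called member in pattern were found by Pearson correlation of log2 values over the 12 arrays among the other 9154 genes, as a description. All 12 arrays share the time course, so high values are common. Most like IL33 were ITPRIP (r = 0.976), PTGIS (0.972), CD40 (0.972), ACTG1 (0.971) and HMGA1 (0.967). PTGIS, which makes prostacyclin, rose by log2 2.08 at 6 h and 2.11 at 18 h.

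Most like IL18 were DNAJA1 (r = 0.948), RGCC (0.903), MOSPD2 (0.899), CHAC1 (0.897) and FAM107B (0.888). DNAJA1, a co-chaperone of HSP70, rose by 0.77 at 6 h (adjusted p = 0.0205) and differed by -0.02 at 18 h. Most like IL1RN were ANTXR2 (0.938), UPP1 (0.938), CD44 (0.935), BTG3 (0.933) and RHOT2 (0.929), of which CD44, the hyaluronan receptor, rose by 3.08 at 6 h and 3.82 at 18 h. Most like IL1R1 were PPP1R16B (0.968), KLF5 (0.958), DTX1 (0.953), MGAT4A (0.943) and FMNL3 (0.929). No gene was on more than 1 of these 4 lists.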

How the data were processed

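The authors deposited log2 values made by RMA, which corrects background, normalizes arrays to each other and summarises probes into 1 value per probe set. Which RMA version, chip definition and set of arrays went into it is not given in the sources used here. Of 24128 probe sets 112 controls were left out, and precision rests on how many arrays there are. Genes were named by the platform annotation (13292 probe sets with 1 symbol, 86 with several, 10638 with none). The 4 time means were fitted to all 12 arrays in R 4.3.3 with limma 3.58.1 (lmFit, contrasts.fit, eBayes at defaults), two-sided, with Benjamini-Hochberg adjustment over 24016 probe sets within each comparison and calls at an adjusted p under 0.05. Values are log2 differences ± SE. Gene lists were read at the brightest probe set of each gene (9155 genes). Every member is reported. Up to 5 called members a list (lowest adjusted p first) and the 5 genes most like each called member were named. The members and lists were chosen with earlier results of these data known. The main fit was also run on simulated data with independent values on every array. Such data lack the likeness of control replicates 1 and 4, so this run cannot show how stable the calls are. The alternatives left out the dimmest 40% of probe sets or used repeated quantile normalization, equal array medians, trend and robust moderation, the replicate number as a block, control replicates 1 and 4 averaged, fits with only the times compared, gene-level tests or 1 array fewer. A further one, which dropped control replicate 3 and averaged replicates 1 and 4, was chosen after seeing the data. No sequences of members are shown.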

Additional observations from a re-analysis of the deposited data

Results flagged for a closer look

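Control replicate 3 stood apart from the other 3 controls by Dixon's test at the 95% level on 4 of the 14 probe sets. IL18 read 11.13 there, against 10.16 to 10.24 in the other controls, and IL1RN read 9.36, against 6.91 to 7.16. On the 2 IL1B probe sets it read 9.21, against 6.75 to 7.10, and 8.76, against 6.20 to 6.37. Chance flags about 1 in 20 groups, and over all 24016 probe sets 6.96% had such a control, which was replicate 3 for 3.29%.

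Differences between treated times were called for 2 genes, both at 18 h against 3 h. The second IL33 probe set was higher by log2 2.00 (adjusted p = 0.0391, limma) and IL1RN by 3.27 (0.0483), with all 3 arrays at 18 h above both arrays at 3 h in each case. Over all probe sets 28.4% did not overlap between these times.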

How the results depend on the processing

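The second IL33 probe set was called at 6 h and 18 h under every alternative run. The 4 calls at 6 h became 1 with the replicate number as a block and 1 with control replicates 1 and 4 averaged, and 6 without the dimmest 40% of probe sets. Of all probe sets tested 3.62%, 5.73% and 19.1% were called in these settings, against 11.3% in the main fit. The 3 calls at 18 h became 2 with the block, which lost the first IL33 probe set (adjusted p = 0.0579), and 2 with control replicate 3 dropped and replicates 1 and 4 averaged. There 6.16% and 8.38% of all probe sets were called, against 12.3% in the main fit. The 2 calls at 18 h against 3 h became 1 with array medians set equal, with trend and robust moderation or when control replicate 3 was dropped and replicates 1 and 4 averaged (an alternative chosen after seeing the data), and 0 with the block, with the controls averaged and with only the times compared. In the same order 2.69%, 2.79%, 2.54%, 0.945%, 2.01% and 0.641% of all probe sets were called, against 2.84% in the main fit. With 1 array left out the count ran from 1 to 8 at 6 h, 1 to 6 at 18 h and 0 to 1 at 3 h, from 0 to 2 at 18 h against 3 h, from 0 to 1 at 6 h against 3 h, and was 0 at 18 h against 6 h. The causes were not tested. The labels do not say that a number marks a shared animal, and the main fit did not pair the samples. Deviations of same-numbered arrays from their time mean correlated at -0.26 to 0.191 (3 of 15 pairs over 0.1). Those of arrays with different numbers correlated at -0.293 to 0.26. Deviations within a time cancel out and the groups are small, so these values cannot decide whether the numbers pair the samples.

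Signs turned for the following differences, none of them called with all arrays. With control replicates 1 and 4 averaged the third IL33 probe set at 3 h was -0.0398 and IL18 at 18 h -0.065. IL18 at 18 h was also -0.0046 with repeated quantile normalization and -0.0591 with the block. The third IL1RAP probe set at 6 h was 0.0008 with quantile normalization and 0.0013 with equal medians. With control replicate 3 dropped as well, the third IL33 probe set at 3 h was -0.0737 and IL1RN 0.34. With 1 array left out, 3 h values ran from -1.22 to 1.90, -0.0707 to 0.86 and -0.0544 to 0.18 on the IL33 probe sets, -0.13 to 0.34 for the second of IL1A, -0.12 to 1.75 and -0.36 to 1.97 for IL1B, -0.72 to 0.35 for IL1RN, -0.17 to 0.0127 for IL1R2, -0.16 to 0.96 for IL1R1 and -0.31 to 0.0416 for the second of IL1RAP. At 6 h the third IL33 probe set ran from -0.30 to 0.39 and the third of IL1RAP from -0.0487 to 0.0358, and at 18 h IL18 from -0.23 to 0.33 and the third of IL1RAP from -0.072 to 0.0124.

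Of 14 probe sets 9 were left without the dimmest 40%, and 5 were dropped. Tested over genes, IL1RAP at 6 h (adjusted p = 0.0473, brightest probe set) and IL1A at 18 h (0.0464, mean of probe sets) were called in addition.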
